A study of Bombus terrestris with 25 samples.

Results

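The change from diapause to egg laying was followed in Bombus terrestris, the buff-tailed bumble bee, by comparing 5 colony founders sampled after diapause with 5 queens sampled in diapause, 10 of the 25 libraries of the series. Libraries were chosen by their group label alone, and each came from the polyA RNA of the eviscerated abdomen, with the fat body attached, of 1 queen. Founders post diapause were 4 months old. They had left the cold for room temperature and daylight, were fed, and were taken a month later with eggs laid and a colony begun. Diapausing queens came straight from 4 C, where they had spent the last 9 to 10 weeks, and were 3 months old by the sample labels or 2.5 months by the series text. All 10 queens had been mated at 5 to 10 days of age with unrelated males and put into the cold on that day, and queens out of the cold were reared in dark nest boxes at 28 to 30 C. Both groups held 1 queen of each of the same 5 genetic lines as labelled. Temperature, light, feeding, age and egg laying all changed between the groups, and their parts in any difference cannot be told apart. The other 15 queens, which were young mated queens, queens 24 h after CO2 anaesthesia and founders after CO2, served to estimate the spread between queens and, for a few genes, as a level to set beside the 2 groups.

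The fat body of an insect does the work that liver and adipose tissue share in vertebrates: it stores triglyceride, glycogen and protein, makes the yolk precursor vitellogenin and most hemolymph proteins, and answers insulin-like peptides, juvenile hormone and ecdysteroids. A bumble bee queen mates in late summer, fattens, and spends the winter alone underground in diapause, a hormonally kept arrest of reproduction with low metabolism. In spring she feeds, activates her ovaries, makes wax and raises the first workers alone. In the dissected abdomen, cells of the cuticle epidermis, oenocytes, muscle, tracheae and remnants of gut or ovary may accompany the fat body.

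Reads had been counted by the authors in 22679 exon-sized intervals, and counts were summed to 3861 genes, of which 3793 had enough reads to test. Totals ran from 2844624 to 4057781 counts in founders post diapause and from 2624582 to 3043931 in diapause. Values are given as CPM, a gene's counts per 1000000 of a library's total in this table, that total being scaled by its TMM factor. They compare queens for 1 gene and not genes with each other. After scaling a library need not sum to 1000000. Over all genes tested founders summed to 908000 to 1650000 CPM and diapausing queens to 877000 to 1080000, and sums over lists carry this scaling. A log2 fold change is founder over diapause with its standard error (SE), a gene was called at an edgeR adjusted p under 0.05, and means stand with their SD over 5 queens. Genes said to rise or fall without a printed p had an adjusted p under 0.05. In bulk RNA, fewer cells of a type and less RNA per cell cannot be told apart.

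The first principal component of the 10 libraries held 78.7% of their variance and set the groups apart. Founders lay between 28.9 and 97.2 on it, while diapause replicates 2 to 5 lay between -53.6 and -81.5 and diapause replicate 1 at -4.22. This queen had a median correlation of 0.819 with founders and of 0.791 with the other diapausing queens, against at least 0.928 within the group for each of the other 4. It lay on the founder side of the other 4 diapausing queens in 1087 of the 1526 genes called higher and in 1267 of the 1541 called lower, and in 537 and 902 of them it lay between those 4 queens and all 5 founders. Founder replicate 1 stood at the far end of the first component and had the smallest TMM factor, 0.605. By correlation diapause replicate 1 goes against its label. The label was kept, the library enters every diapause mean and SD, and whether it was mislabelled was not tested. Results are also given without it, or without founder replicate 1, where that moved them.

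**Figure D1:**
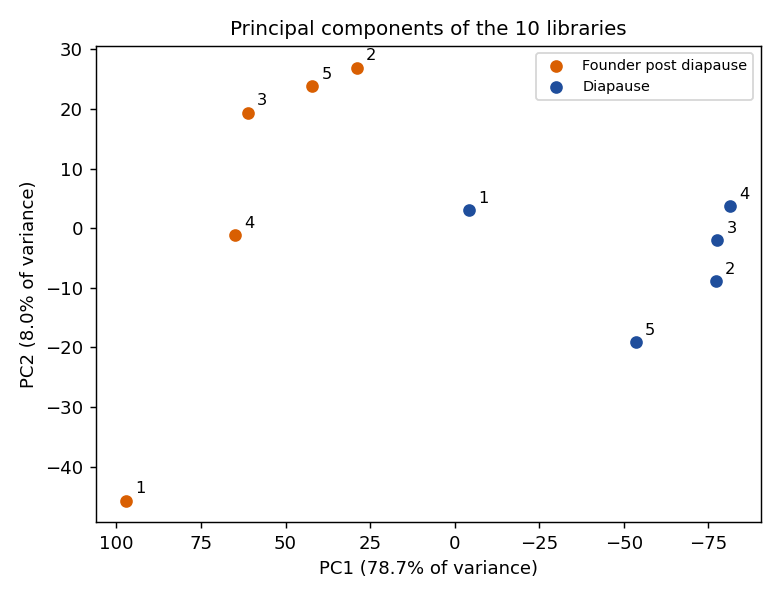
Positions of the 10 libraries on the first (horizontal, axis reversed) and second principal component of log2 CPM, with founders post diapause in orange, diapause in blue and the replicate number beside each point. Diapause replicate 1 lies at -4.22 on the first component, between the founders (28.9 to 97.2) and the other diapausing queens (-53.6 to -81.5).

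Of the 3793 genes tested, 3067 were called, 80.9%. Founders had 1526 genes higher, 40.2%, and 1541 lower, 40.6%, the shares against which the counts below are to be read. All 5 founders lay above all 5 diapausing queens in 729 genes, 19.2%, and below them in 1119, 29.5%, together 1848 genes or 48.7%. The falls were deeper than the rises: genes called lower had a median log2 fold change of -2.14 and those called higher one of 1.53, and 885 fell by over 4-fold against 422 that rose by as much. The median over all genes was 0.28, and 0.07 when library totals alone set the scale, a shift to be kept in mind for small changes. Of the calls, 2557 kept their direction and threshold in every fit that left out 1 of the 25 libraries, 1098 higher and 1459 lower.

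Direction went with gene length and with level. Genes were ranked by the summed length of their intervals and split into 3 bins of equal size. In the bin of short genes, 45 to 2001 bases, 57.6% were higher in founders and 18.8% lower, while in the bin of long genes, 4272 to 72943 bases, 16.5% were higher and 70.5% lower. Across genes, which are not independent replicates, the rank correlation of log2 fold change with length was -0.47. With level, taken as CPM per kb of interval length averaged over both groups, it was 0.43. Split into 3 bins by level, 67.7% of the high bin were higher in founders and 17.4% lower, against 17.2% and 60.2% of the low bin. Level is divided by length, so length and level are not separate measures. Coverage along genes was compared as the log2 ratio of reads in 3' over 5' intervals, centred per gene over 404 genes. It averaged -0.003 ± 0.011 in founders and 0.001 ± 0.019 in diapause (SD, n = 5 each; two-sided exact permutation p = 0.69). The parts of length and level in the results below were not tested. The median gene length was 2906 bases over all genes. Among the lists below it was shortest for cytosolic ribosomal proteins, at 794 bases, followed by 976 for oxidative phosphorylation, 1308 for secretion, 1557 for gut markers, 1622 for the antioxidant list, 1667 for mitochondrial ribosomal proteins and 1794 for the proteasome. It was longest for insulin, TOR and FOXO signalling, at 7880.5 bases, with 6917 for the clock pair and 5649 for hemocyte markers.

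**Figure D2:**
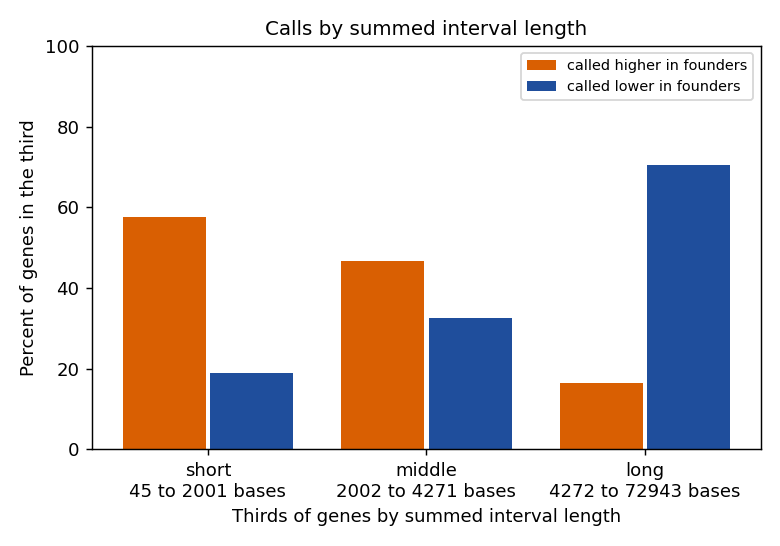
Share of genes called higher (orange) or lower (blue) in founders post diapause, in percent, in 3 bins of genes ranked by summed interval length. Higher calls fall to 16.5% among long genes against 57.6% among short ones, and lower calls run the other way, 70.5% and 18.8%.

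Of 3 yolk precursor and storage protein genes tested, 2 fell and 0 rose. Vitellogenin-6-like (LOC100643258), which resembles yolk precursor genes, had 11.3, 26.8, 17, 19.6 and 21.1 CPM in founders, against 349, 6940, 8240, 2670 and 7500 CPM in diapausing queens. Every founder lay far below every diapausing queen, and diapause replicate 1 was the lowest of its group. The gene fell by 8.06 ± 1.11 on the log2 scale (adjusted p = 9.46e-06) and was lower in all 16 of its intervals. The hexamerin-like storage protein gene LOC100650745 had 84.6, 297, 443, 443 and 177 CPM in founders, against 3420, 2690, 1200, 733 and 2820 CPM in diapause, without overlap. Its log2 fold change was -2.91 ± 1.14 (adjusted p = 0.0231), and the call was lost without founder replicate 1 or 5 (adjusted p = 0.0525 and 0.0503). The other hexamerin-like gene, LOC100650380, averaged 8.49 ± 4.76 CPM in founders and 4.24 ± 1.20 CPM in diapause and was not called (adjusted p = 0.0634), though it was without founder replicate 2 or 5 post diapause or founder replicate 1 post CO2 (adjusted p = 0.049, 0.0214 and 0.0393). Whether vitellogenin-6-like is the main yolk gene of the species was not tested.

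Enzymes of carbon metabolism moved in both directions. PEPCK, phosphoenolpyruvate carboxykinase, makes the first committed intermediate of gluconeogenesis and of glycerol made from amino acids. It had 19.7, 192, 84.7, 394 and 25.0 CPM in founders, against 7710, 12700, 11500, 10200 and 9940 CPM in diapause. The lowest diapausing queen lay far above the highest founder, and the log2 fold change was -6.18 ± 1.14 (adjusted p = 8.89e-05), or -7.01 without founder replicate 4. Fructose-1,6-bisphosphatase 1-like (LOC100650704), the other gluconeogenic enzyme tested, fell by 2.63 ± 0.88 on the log2 scale, and hexokinase type 2-like (LOC100644228), which phosphorylates glucose, by 2.17 ± 0.39, both without overlap between groups. The mitochondrial aconitase (LOC100645849) fell by 1.54 ± 0.47.

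Other enzymes of central carbon metabolism rose. The transaldolase and transketolase below serve the non-oxidative branch of the pentose phosphate pathway. In its NADPH-making branch the entry enzyme glucose-6-phosphate 1-dehydrogenase (LOC100648124) was not called at 0.45, while 6-phosphogluconate dehydrogenase (LOC100645214) rose by 1.44. Transaldolase-like (LOC100651996) averaged 5800 ± 1940 CPM in founders and 726 ± 780 CPM in diapause and rose by 3.00 ± 0.60 on the log2 scale, or 3.94 without diapause replicate 1. Transketolase-like protein 2 (LOC100649799) rose by 1.92 ± 0.46, or 2.54 without that queen, glyceraldehyde-3-phosphate dehydrogenase (LOC100648830) by 1.86 ± 0.40, L-lactate dehydrogenase (LOC100649579) by 2.43 ± 0.80, or 3.04 without diapause replicate 3, and sorbitol dehydrogenase-like (LOC100643624) by 2.58 ± 0.57, or 3.32 without diapause replicate 1. Of 28 central carbon genes tested, 17 rose and 6 fell, with a median log2 fold change of 1.27 against 0.28 for all genes.

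Sugar transporters and trehalases held members that rose and members that fell. Trehalose is the main blood sugar of insects, Tret1 carries it across cell membranes and trehalase splits it to glucose. The trehalase LOC100647648 averaged 236 ± 131 CPM in founders and 1390 ± 360 CPM in diapause (log2 fold change -2.56 ± 0.49), while the trehalase LOC100646078 averaged 557 ± 341 CPM in founders and 192 ± 67.1 CPM in diapause (1.54 ± 0.44). Of 17 Tret1-like genes, 7 rose and 5 fell. Among them LOC100644978 had 16.9, 445, 122, 106 and 283 CPM in founders, against 6.12, 11.1, 22.4, 8.53 and 8.39 CPM in diapause, and rose by 4.11 ± 0.62, with founder replicate 1 inside the diapause range. LOC100646027 had 23.5, 36.7, 26.2, 23.2 and 31.3 CPM in founders, against 45.4, 249, 407, 410 and 142 CPM in diapause, and fell by 3.15 ± 0.52. LOC100648799 rose by 2.11 ± 0.45 and LOC100650588 fell by 3.16 ± 0.53. The members are paralogs by name, the handling of reads shared between copies is not stated, and their separate values are uncertain. Of 22 genes listed for glycogen, trehalose and polyol metabolism 11 rose and 6 fell (median 1.36), and of 46 sugar and amino acid transporters 19 rose and 18 fell (median 0.77). The 17 Tret1-like genes are in both lists, so these counts are not separate results. The rest of the first list are the trehalases, phosphoglucomutases and sorbitol dehydrogenase, and it holds no glycogen synthase or phosphorylase.

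**Figure D3:**
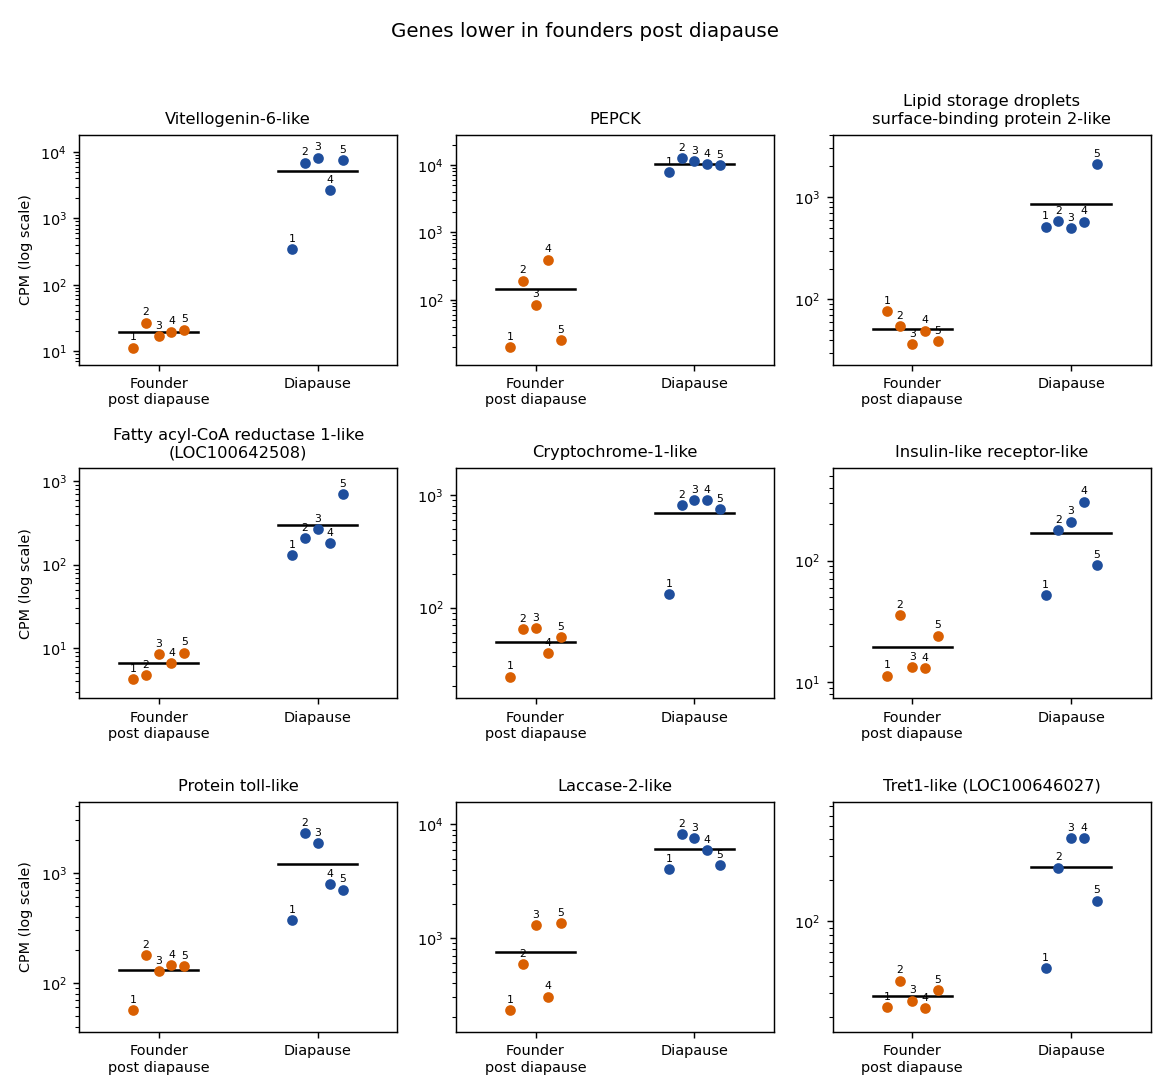
CPM on a log scale of 9 genes in the 5 founders post diapause (orange, left in each panel) and the 5 diapausing queens (blue, right), with replicate numbers and the group mean as a bar. In each panel all founders lie below all diapausing queens, and diapause replicate 1 is the lowest of its group for vitellogenin-6-like, PEPCK, cryptochrome-1-like, insulin-like receptor-like, protein toll-like, laccase-2-like, the Tret1-like gene and the reductase.

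Genes of lipid storage and lipid supply also moved in both directions. Lipid storage droplets surface-binding protein 2-like (LOC100643850), a perilipin that coats the fat body's triglyceride droplets, had 77.5, 54.9, 36.8, 49.7 and 39.4 CPM in founders, against 512, 580, 499, 575 and 2070 CPM in diapause. The groups were apart with every queen, and the fall was 4.04 ± 0.66 on the log2 scale, or 3.45 without diapause replicate 5. Pancreatic lipase-related protein 2-like (LOC100645916) fell by 3.82 ± 0.66, with a log2 fold change of -4.43 without founder replicate 2. Diacylglycerol kinase theta-like (LOC100651833), which turns diacylglycerol into phosphatidic acid, had 18.8, 40.2, 23.1, 23.2 and 32.7 CPM in founders, against 154, 1370, 1260, 1860 and 537 CPM in diapause, and fell by 5.23 ± 0.64. A list drawn up for lipid breakdown and droplets had 10 of 18 higher and 2 lower, or 6 higher with library totals as the scale, and 2 of its rises are 3-hydroxyacyl-CoA dehydratases, which serve elongation (LOC100645881, below, and LOC100642777, 1.39). Carnitine palmitoyltransferase 2 (LOC100646454), which brings fatty acids into mitochondrial oxidation, rose by 1.28 ± 0.38, and hormone-sensitive lipase (LOC100646474) was not called at 0.39 ± 0.29. In the list of fatty acid and triglyceride synthesis, 10 of 18 genes rose and 4 fell, but 11 of the 18 are elongases of very long chain fatty acids, described below, with 8 of the rises. Of the other 7 genes 2 rose, 3 fell and 2 were not called. ATP-citrate synthase-like (LOC100650219), which makes cytosolic acetyl-CoA, averaged 2520 ± 1070 CPM in founders and 750 ± 178 CPM in diapause, a rise of 1.75 ± 0.49. Acetyl-CoA carboxylase-like (LOC100647039), the next and rate-limiting enzyme, averaged 355 ± 264 CPM in founders and 1310 ± 463 CPM in diapause, a fall of 1.88 ± 0.66. The SCAP-like gene (LOC100650711), whose protein escorts the lipogenic transcription factor SREBP, fell by 1.95 ± 0.53. Diacylglycerol O-acyltransferase 1-like (LOC100646196), the last step of triglyceride synthesis, fell by 1.03 ± 0.42, a call lost without founder replicate 1 or 4 or diapause replicate 3 (adjusted p = 0.0645, 0.0579 and 0.0515).

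At each of the 4 steps of the cycle that lengthens fatty acids beyond the usual chain at least 1 gene rose, a grouping made after the values were seen. The cycle condenses, reduces, dehydrates and reduces again, adding a pair of carbons per turn, and its products feed hydrocarbons and waxes. For the condensing step, 8 of 11 elongases rose and 1 fell, with a median log2 fold change of 2.22. Elongase 6-like LOC100648002 had 10000, 6400, 14600, 6570 and 4920 CPM in founders, against 379, 284, 717, 470 and 288 CPM in diapause. The groups were far apart, the rise was 4.31 ± 0.69, and 4 of its 7 intervals shared the direction. LOC100652206 rose by 3.01 ± 0.42, LOC100647204 by 3.45 ± 0.88 and LOC100649601 by 2.93 ± 0.82, or by 5.50 without diapause replicate 1, which had 1740 CPM against 41.3 to 97.3 in the other 4. The 1 elongase that fell, LOC100646637 (log2 fold change -1.71 ± 0.58), had 185 CPM in diapause replicate 1, below every founder, and 2050 to 3720 CPM in the other diapausing queens.

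The enzyme for the first reduction, estradiol 17-beta-dehydrogenase 12-like (LOC100642272), had 15100, 10600, 21500, 3950 and 5490 CPM in founders, against 3260, 629, 1290, 806 and 304 CPM in diapause, and rose by 3.17 ± 0.61, or 3.92 without diapause replicate 1. The dehydratase, 3-hydroxyacyl-CoA dehydratase 2-like (LOC100645881), averaged 2910 ± 2250 CPM in founders and 271 ± 308 CPM in diapause. It rose by 3.42 ± 0.60, or by 4.43 without diapause replicate 1 and 2.77 without founder replicate 1. The last enzyme, trans-2,3-enoyl-CoA reductase-like (LOC100644169), averaged 6160 ± 3360 CPM in founders and 674 ± 890 CPM in diapause and rose by 3.19 ± 0.59, or by 4.48 without diapause replicate 1. The groups did not overlap for any of these 3 genes.

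Fatty acyl-CoA reductases turn fatty acyl-CoA into alcohols, the building blocks of wax esters and of some pheromones. Of 14 tested, 6 rose and 4 fell, and the summed CPM of the family was 10600 to 21000 in founders and 925 to 5680 in diapause, the highest of these being diapause replicate 1, with at most 1790 in the other 4. LOC100643779 had 7070, 5780, 9120, 6150 and 5300 CPM in founders, against 1430, 195, 179, 140 and 153 CPM in diapause, and rose by 4.00 ± 0.65, or 5.35 without diapause replicate 1. LOC100645650 rose by 3.56 ± 0.87, or 6.02 without that queen, and LOC100648083 by 2.75 ± 0.48, or 3.45. LOC100642508 had 4.23, 4.79, 8.51, 6.63 and 8.87 CPM in founders, against 129, 206, 265, 183 and 693 CPM in diapause, and fell by 5.46 ± 0.72. LOC100647527 fell by 5.34 ± 0.64 and had 63.5 to 298 CPM in diapause. For both falling reductases diapause replicate 1 was the lowest of its group but stayed with it.

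**Figure D4:**
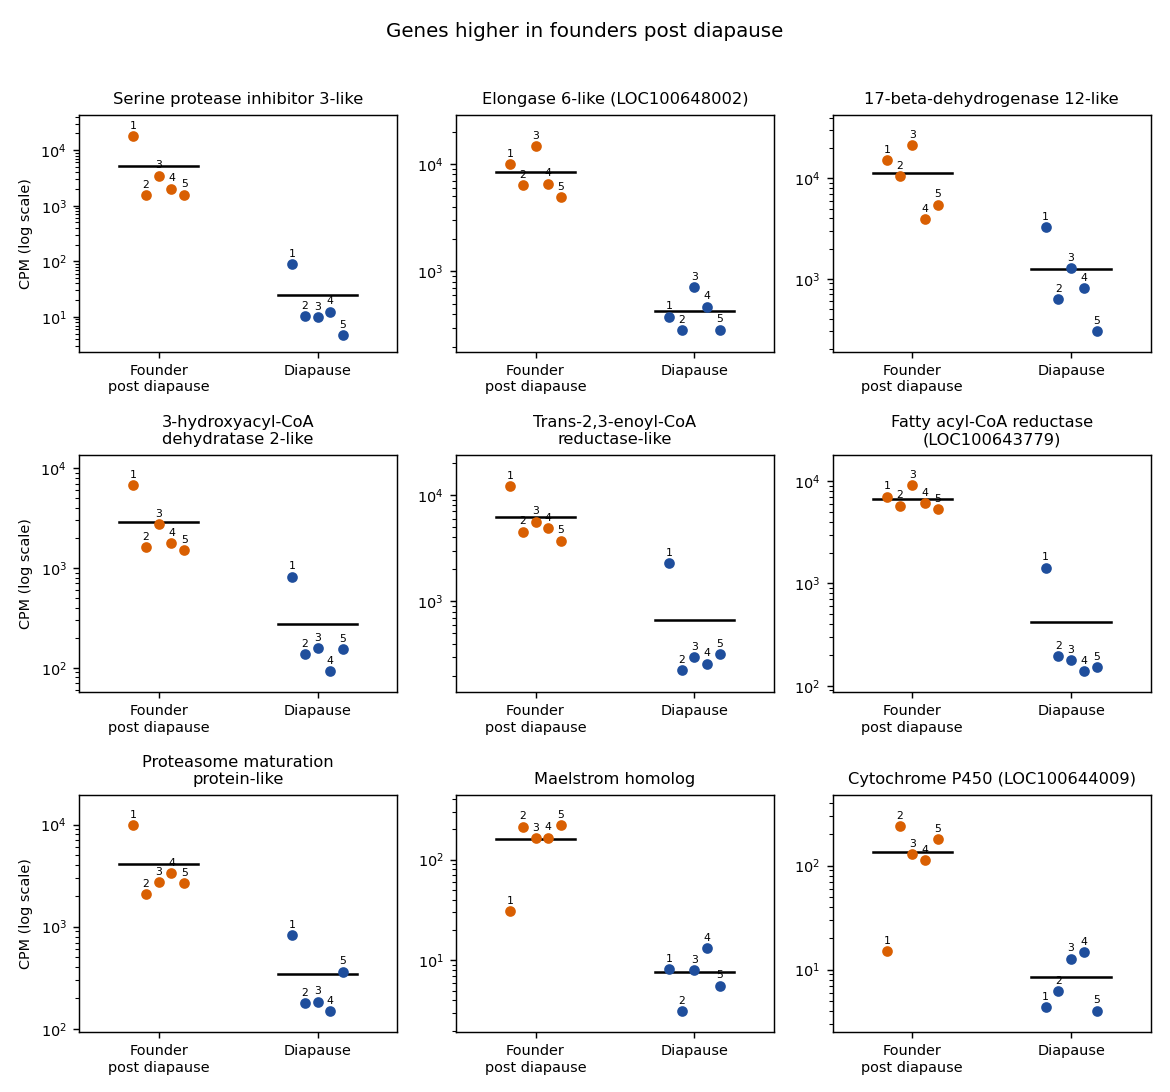
CPM on a log scale of 9 genes in the 5 founders post diapause (orange, left in each panel) and the 5 diapausing queens (blue, right), with replicate numbers and the group mean as a bar. All founders lie above all diapausing queens in each panel, and diapause replicate 1 is the highest of its group for the serine protease inhibitor, the dehydrogenase, the dehydratase, both reductases and the proteasome maturation gene.

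Of the 12 genes of insulin, TOR and FOXO signalling, 9 fell and 1 rose, and the median log2 fold change was -1.52. These are long genes, with a median of 7880.5 bases. In the bin of long genes 70.5% were lower and the median was -1.83, so the list lay near that share. The part of length was not tested. Insulin-like peptides signal through a receptor, its substrate and the kinase PDK1 to restrain the transcription factor FOXO. TOR with its partner raptor passes nutrient state to ribosomal protein S6 kinase of the beta type. The insulin-like receptor-like gene (LOC100650952) had 11.3, 35.7, 13.3, 13.0 and 24.1 CPM in founders, against 51.9, 178, 210, 306 and 92.3 CPM in diapause, and fell by 3.10 ± 0.58. Its substrate (LOC100644779) fell by 2.42 ± 0.53 and PDK1 (LOC100649731) by 2.65 ± 0.49. Of the genes named as S6 kinases, the beta-1-like one (LOC100646461) fell by 1.09 ± 0.45. It was not called without founder replicate 1 or 4 or diapause replicate 5 (adjusted p = 0.064, 0.0602 and 0.0589). The alpha-5-like (LOC100647851) and delta-1-like (LOC100649545) genes fell by 2.80 ± 0.44 and 1.58 ± 0.29. Both entered the list by name, and whether they act in TOR signalling was not tested. Tuberin (LOC100645475), a brake on TOR, fell by 2.29 ± 0.44 and raptor (LOC100646513) by 1.46 ± 0.44.

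FOXO (LOC100643217) had 17.9, 206, 52.4, 45.1 and 84.0 CPM in founders, against 227, 217, 263, 224 and 177 CPM in diapause, with founder replicate 2 inside the diapause range. Its fall of 1.45 ± 0.60 (adjusted p = 0.031) was -2.15 on the log2 scale without that founder. The call was lost without diapause replicate 1 or 3 (adjusted p = 0.0629 and 0.0541) or founder replicate 1, 3, 4 or 5 (0.0648, 0.0582, 0.071 and 0.0679). The kinase mTOR itself (LOC100649664), covered by 1 interval, averaged 408 ± 140 CPM in founders and 222 ± 45.3 CPM in diapause and was the member that rose, by 0.88 ± 0.26. The 4E-binding protein (LOC100643384), which TOR restrains, and Rheb (LOC100644046), which activates TOR, had log2 fold changes of 0.60 ± 0.38 and 0.65 ± 0.34 and were not called, though Rheb was without diapause replicate 1 (adjusted p = 0.0201) and with the genetic line as a block (adjusted p = 0.046). Cap-binding eIF4E (LOC100647630) rose by 2.13 ± 0.36.

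Both clock genes of the table fell, beside 40.6% lower among all genes. Their median length was 6917 bases, and in the bin of long genes 70.5% were lower. Cryptochrome-1-like (LOC100647270), a light-sensing or repressor protein of insect clocks, had 24.4, 64.1, 65.7, 39.3 and 54.9 CPM in founders, against 133, 814, 903, 909 and 750 CPM in diapause. No founder reached any diapausing queen, diapause replicate 1 was far below the rest of its group, and the fall was 3.82 ± 0.46 (adjusted p = 3.09e-06). Period had 14.6, 61.3, 21.4, 19.6 and 52.1 CPM in founders, against 54.5, 88.9, 118, 136 and 126 CPM in diapause, a fall of 1.63 ± 0.64 (adjusted p = 0.0228) that was not called without founder replicate 4 (adjusted p = 0.0539) or with the genetic line as a block (adjusted p = 0.0617). The hour of sampling is not in the labels, and the light at sampling of the diapausing queens is not described there.

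Steroid hormone genes moved in both directions. CYP315A1-like (LOC100644009) is the mitochondrial hydroxylase known in Drosophila as Shadow, a late step of ecdysteroid synthesis. It had 15, 241, 128, 112 and 179 CPM in founders, against 4.37, 6.25, 12.8, 14.7 and 4.04 CPM in diapause. It rose by 4.00 ± 0.74, with founder replicate 1 barely above the highest diapausing queen. The ecdysteroid UDP-glucosyltransferase-like genes, named after an enzyme that inactivates ecdysteroids, rose by 4.42 ± 0.77 (LOC100647883, or 5.43 without diapause replicate 1) and 4.14 ± 0.91 (LOC100647524, or 5.22 without that queen and 3.34 without founder replicate 3). The ecdysone receptor (LOC100646757) fell by 2.10 ± 0.65, and the ecdysone-induced nuclear receptor E75 (LOC100644185) had 19.3, 218, 79.6, 51.7 and 114 CPM in founders, against 253, 1960, 2480, 1710 and 897 CPM in diapause, a fall of 3.92 ± 0.89. Isopentenyl-diphosphate delta-isomerase (LOC100646012), of the mevalonate pathway that leads to juvenile hormone, rose by 1.90 ± 0.37. Juvenile hormone epoxide hydrolase 1-like (LOC100648328), which degrades that hormone, was not called at 0.99 ± 0.50 (adjusted p = 0.0685), but was without diapause replicate 1 (log2 fold change 1.81, adjusted p = 0.000691) and with the line as a block (adjusted p = 0.0329). Of 11 genes of the juvenile hormone, mevalonate and ecdysteroid pathways 7 rose and 2 fell (median 0.99), and of 19 cytochrome P450s and UDP-glycosyltransferases 7 rose and 4 fell (median 0.71). Both ecdysteroid UDP-glucosyltransferase-like genes are in both lists, so these counts are not separate results. The list of 11 also caught a subunit of a protein farnesyltransferase. Takeout-like (LOC100643577), a carrier of hydrophobic ligands in insects, rose by 4.01 ± 0.68.

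Genes of immune recognition, signalling and effectors fell in 6 of 11 members and rose in 3, with a median of -0.79. Hymenoptaecin was 1 of the 6 and defensin 1 of the 3. Protein toll-like (LOC100651716), a receptor of antimicrobial signalling, had 56.4, 179, 129, 145 and 143 CPM in founders, against 369, 2290, 1870, 788 and 702 CPM in diapause, and fell by 3.21 ± 0.54. Its pathway inhibitor cactus-2 fell by 1.96 ± 0.35, toll-like receptor 9-like (LOC100650475) by 2.30 ± 0.41 and the opsonin TEPA by 2.42 ± 0.46, while the toll-interacting protein (LOC100652100) rose by 1.00 ± 0.28. The antimicrobial peptides differed from each other. Hymenoptaecin (LOC100631061) had 170, 8.30, 15.3, 13.8 and 16.9 CPM in founders, against 16.3, 1120, 228, 194 and 267 CPM in diapause, so that diapause replicate 1 lay within the range of the other founders and founder replicate 1 just below the other diapausing queens. Its fall of 3.04 ± 1.11 was lost without diapause replicate 2 (log2 fold change -1.99, adjusted p = 0.0923), and the log2 fold change was -4.79 without founder replicate 1. Defensin (Def) had 1790, 40.8, 149, 210 and 96.2 CPM in founders, against 51.3, 54.5, 37.2, 60.1 and 7.45 CPM in diapause, and its rise of 3.44 ± 1.07 was lost without founder replicate 1 (log2 fold change 1.51, adjusted p = 0.124).

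Serpins are inhibitors that restrain proteases, in insects often those of the hemolymph. Of 7 tested, 6 rose and 1 fell, and of 15 serine proteases and serpins together 10 rose and 2 fell (median 1.66). Serine protease inhibitor 3-like (LOC100651307) had 17700, 1540, 3490, 2030 and 1590 CPM in founders, against 88.6, 10.4, 10.0, 12.4 and 4.66 CPM in diapause. The groups were far apart, with founder replicate 1 and diapause replicate 1 each the highest of its group. The rise was the largest among named products without overlap, 7.70 ± 1.16 (adjusted p = 1.72e-05), or 9.11 without diapause replicate 1 and 6.36 without founder replicate 1. Alaserpin-like LOC100648602 had 50300, 9280, 43400, 22200 and 19000 CPM in founders, against 6910, 3830, 7150, 4610 and 4420 CPM in diapause, and rose by 2.42 ± 0.76. On average 2.29% of a founder library and 0.551% of a diapause library fell to this gene. The neighbouring serine protease inhibitor 3/4-like gene LOC100648482 rose by 2.80 ± 0.90, LOC100648717 by 2.94 ± 0.92 and alaserpin-like LOC100648833 by 1.66 ± 0.60, the last not called without founder replicate 1 (adjusted p = 0.0579). Together with LOC100652301, on a scaffold of its own (3.71 ± 0.92), they are close copies among which reads may have been split, so their separate values are uncertain. Serpin B13-like (LOC100647974) had 32 to 152 CPM, with a median of 104, in founders, against 235, 1600, 1270, 814 and 448 CPM in diapause, and was the serpin that fell, by 3.18 ± 0.49.

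Genes for respiration, mitochondrial translation and the proteasome rose in nearly every member tested. Of 36 oxidative phosphorylation genes, all for subunits but 1 copper chaperone of cytochrome c oxidase (LOC100647476, higher), 35 rose and 0 fell, against 40.2% higher among all genes, with a median log2 fold change of 1.95. These are short genes by their median, and in the bin of short genes 57.6% were higher, with a median of 1.13. The part of length was not tested. NADH dehydrogenase beta subcomplex subunit 8 (LOC100647466), of complex I, had 1890, 510, 917, 889 and 728 CPM in founders, against 412, 58.0, 66.5, 32.2 and 79.5 CPM in diapause, and rose by 2.93 ± 0.59, or 4.06 without diapause replicate 1. Another complex I gene (LOC100648250) rose by 1.84 ± 0.39, and ATP synthase coupling factor 6 (LOC100644568) by 3.00 ± 0.65, or 2.03 without founder replicate 1. Summed over the list, founders had 16500 to 68200 CPM and diapausing queens 5180 to 15200, diapause replicate 1 having the most of its group.

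Of 29 mitochondrial ribosomal proteins 27 rose and 0 fell (median 1.58), among them subunits S29 (LOC100647568, 2.34 ± 0.41) and S2 (LOC100643376, 2.20 ± 0.43). Of 23 proteasome genes 20 rose and 0 fell (median 1.99). The proteasome maturation protein (LOC100646776), a chaperone of core assembly, had 9810, 2070, 2750, 3340 and 2650 CPM in founders, against 830, 179, 185, 150 and 364 CPM in diapause, and rose by 3.59 ± 0.60, or by 4.22 without diapause replicate 1 and 2.94 without founder replicate 1. The core subunit alpha type-2 (LOC100644545) rose by 2.96 ± 0.49, or 2.36 without founder replicate 1, and a 26S regulatory subunit (LOC100647428) by 2.86 ± 0.44. In the list of translation factors and tRNA synthetases 22 of 32 rose and 3 fell. The list also caught a transcription elongation factor (LOC100646195), which rose, and the 4E-binding protein and an eIF2-alpha kinase (LOC100645626), which restrain translation and were not called. Among its members the cytoplasmic tryptophanyl-tRNA synthetase (LOC100646702) rose by 1.81 ± 0.33. Genes of secretion through the endoplasmic reticulum rose in 15 of 18 and fell in 3. Cytosolic ribosomal proteins rose in 6 of 13 and fell in 1 (median 0.87), with 11 higher in DESeq2. Both ribosomal lists, the proteasome and the secretion list have median lengths in the bin of short genes. In that bin 57.6% were higher and the median was 1.13.

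In the antioxidant list 17 of 23 genes rose and 2 fell, beside 57.6% higher in the bin of short genes, and 12 were higher when library totals set the scale. Among the 17 were a splicing protein named for its thioredoxin-like fold (LOC100651879, 1.82) and the copper chaperone for superoxide dismutase (LOC100652188, 1.39), which are no antioxidant enzymes themselves. Copper-zinc superoxide dismutase (LOC100646662), which removes superoxide, had 19300, 7410, 11700, 6260 and 5760 CPM in founders, against 3220, 1760, 1720, 1580 and 3170 CPM in diapause, and rose by 2.14 ± 0.44. Glutathione S-transferase omega-1-like (LOC100650118) rose by 2.61 ± 0.47, or 3.34 without diapause replicate 1, and a second dismutase (LOC100642760) was not called at 0.95 ± 0.57. Heat shock proteins and chaperones rose in 12 of 22 members and fell in 3. The heat shock protein 83-like gene LOC100645819 averaged 1130 ± 450 CPM in founders and 404 ± 107 CPM in diapause, a rise of 1.48 ± 0.38.

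**Figure D5:**
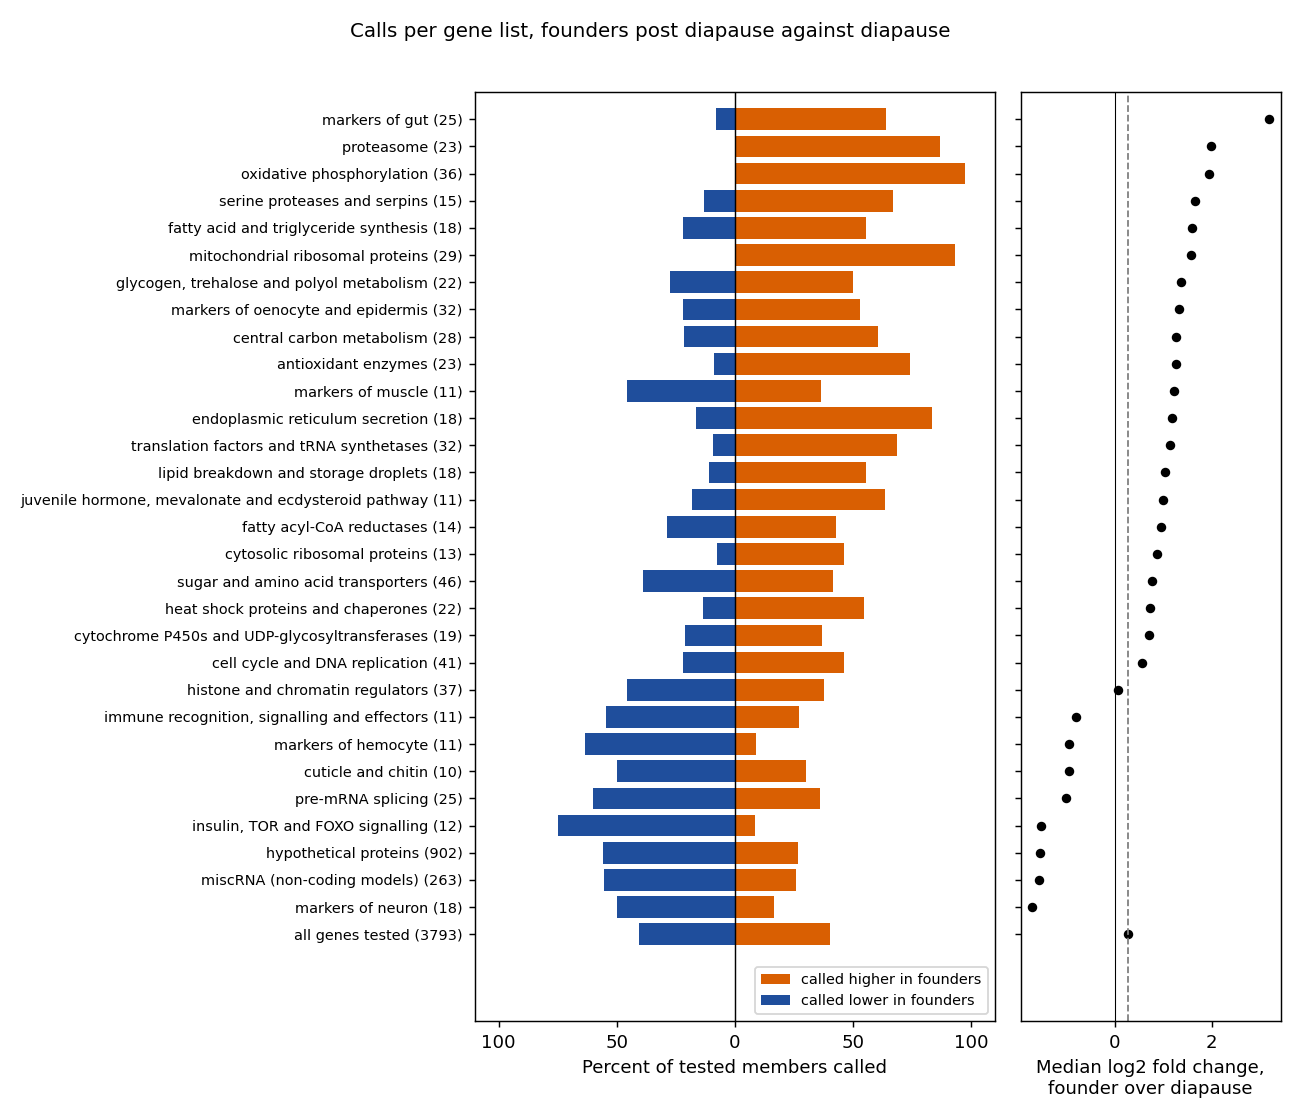
For each gene list with at least 10 tested members (number in brackets), the percent of members called higher (orange, right) and lower (blue, left) in founders post diapause, and in the right panel the median log2 fold change, founder over diapause. The dashed line is the median of all genes, 0.28. Oxidative phosphorylation, mitochondrial ribosomal proteins and proteasome have no member called lower, while lower calls prevail for insulin, TOR and FOXO signalling, splicing, neuron markers and unnamed genes.

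Pre-mRNA splicing genes had 15 of 25 lower and 9 higher, or 5 higher with library totals as the scale, with a median of -1.01. The large catalytic-core protein of the spliceosome, processing-splicing factor 8 (LOC100648362), fell by 1.83 ± 0.59, and splicing factor 3B subunit 1 (LOC100650395), which holds the branch site, had 39.5, 202, 93.9, 130 and 217 CPM in founders, against 522, 391, 418, 469 and 381 CPM in diapause, a fall of 1.68 ± 0.43. Its small partner at the branch site, the p14-like protein (LOC100644298), rose by 1.66 ± 0.36. Chromatin genes were divided, 14 of 37 higher and 17 lower, with a median of 0.06. With library totals as the scale 9 were higher and the median was -0.05, and it was -0.02 when the compared libraries alone were fitted. The histone methyltransferase EHMT1-like (LOC100648622) fell by 2.96 ± 0.49 and the jmjC histone demethylase (LOC100650431) by 2.95 ± 0.45. A gene named after the transposase-fused methyltransferase SETMAR (LOC100645326) rose by 3.62 ± 0.65. In the cell cycle list 19 of 41 rose and 9 fell: cyclin-D2-like (LOC100642210), which drives exit from G1, had 10.3, 45.3, 21.8, 18.9 and 41.6 CPM in founders, against 116, 604, 717, 980 and 527 CPM in diapause, a fall of 4.41 ± 0.63, the kinase CDK14-like (LOC100652163) fell by 2.54 ± 0.35 and CDK8-like (LOC100649689), of the Mediator complex, rose by 1.82 ± 0.34.

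Markers of other cell types were examined for their own changes. Of 25 genes for digestive enzymes, peritrophin and proton pump subunits 16 rose and 2 fell, with a median of 3.17. In the bin of short genes 57.6% were higher and the median was 1.13. Log2 fold changes ran from -3.57 to 4.95, and with the line as a block 11 rose and the median was 2.04. Trypsin-1-like (LOC100646569) had 444, 133, 255, 227 and 139 CPM in founders, against 25.9, 4.51, 3.60, 1.16 and 2.80 CPM in diapause, and rose by 4.95 ± 0.72, or 6.29 without diapause replicate 1. Aminopeptidase N-like (LOC100642906) rose by 3.36 ± 0.58, with 32.4 CPM in founder replicate 1 and 387 to 964 in the other founders. Summed over the list, founders had 3610 to 47300 CPM, diapause replicate 1 had 5250 and the other diapausing queens 871 to 2130. The abdomens had been eviscerated, and the part of gut remnants in these values was not tested.

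Germ line and ovary markers rose in 3 of 6 members and fell in 2. The egg's uptake receptor for yolk, vitellogenin receptor-like (LOC100649042), had 103, 1390, 595, 1060 and 1460 CPM in founders, against 91.8, 50.7, 56.0, 427 and 24.2 CPM in diapause. Founder replicate 1 lay among the diapausing queens, and the rise was 2.82 ± 0.80, or 4.05 without diapause replicate 4. Exuperantia-like (LOC100646270), which localizes maternal RNA in the Drosophila egg, had 297, 1100, 733, 3270 and 2350 CPM in founders, against 155 to 265 CPM in diapause, a rise of 2.96 ± 0.52. Piwi-like (LOC100646008), which silences transposons in germ cells with small RNAs, rose by 2.71 ± 0.58. Maelstrom (LOC100644702), of the same silencing pathway and outside the list, had 31, 212, 164, 165 and 220 CPM in founders, against 8.16, 3.13, 8.01, 13.2 and 5.59 CPM in diapause, a rise of 4.38 ± 0.59. Nanos homolog 3-like (LOC100642642) fell by 1.51 ± 0.55, a call lost without diapause replicate 4 (adjusted p = 0.0551) or with the line as a block (adjusted p = 0.0506), and bicaudal D-related protein (LOC100650109) fell by 2.76 ± 0.54. The summed markers had 483 to 5020 CPM in founders and 587 to 1680 in diapause.

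Muscle genes were divided, 5 of 11 lower and 4 higher, with a median of 1.23, or -0.54 when the compared libraries alone were fitted. Muscle LIM protein Mlp84B-like (LOC100646273) had 934, 1880, 2480, 1700 and 1840 CPM in founders, against 6040, 15800, 11300, 13000 and 7060 CPM in diapause, and fell by 2.59 ± 0.48. Paramyosin (LOC100644720) fell by 2.57 ± 0.61 and sarcalumenin (LOC100650077) by 2.15 ± 0.35. Outside the list, the calcium channel ryanodine receptor (LOC100643070), in 54 intervals, fell by 4.48 ± 0.77. Myosin regulatory light chain 2 (LOC100642903) rose by 2.58 ± 0.67, or 1.78 without founder replicate 1, and arginine kinase (Argk) by 1.48 ± 0.48, or 2.12 without diapause replicate 1, a call lost without founder replicate 3 (adjusted p = 0.1), the queen with 4830 CPM against 875 to 1520 in the other founders. Neuron markers fell in 9 of 18 members, rose in 3 and were not called in 6, with log2 fold changes from -3.68 to 1.53. Among the deepest falls were an acetylcholine receptor subunit (LOC100648987, a fall of 3.44 ± 0.37) and a GABA transporter (LOC100642987, a fall of 3.68 ± 0.48). Hemocyte markers, with a median length of 5649 bases, fell in 7 of 11 and rose in 1, beside 70.5% lower in the bin of long genes. Summed muscle markers had 9720 to 25700 CPM in founders and 15000 to 37600 in diapause. Summed neuron markers had 928 to 1850 CPM in founders and 1320 to 2490 in diapause, and hemocyte markers 1800 to 2970 CPM in founders and 2420 to 3850 in diapause. The groups overlapped for each sum, but for neuron markers only through diapause replicate 1, at 1320 CPM. Diapause replicates 2 to 5 had 2040 to 2490 CPM for them. Oenocyte and epidermis markers rose in 17 of 32 and fell in 7, but 25 of the 32 are the elongases and acyl-CoA reductases described above, with 14 of the 17 rises, so this list is no separate measure of these cells. Its sum was 33600 to 77300 CPM in founders and 8720 to 23300 in diapause, and the part of these cells in the lipid results was not tested. Among cuticle genes laccase-2-like (LOC100644713), the oxidase that tans cuticle, had 232, 591, 1290, 304 and 1360 CPM in founders, against 4020, 8260, 7570, 5940 and 4380 CPM in diapause, a fall of 3.00 ± 0.59. The larval cuticle protein LCP-17-like (LOC100643233) had at most 2.82 CPM in founders and was high in diapause replicates 3 and 4 alone, at 58.4 and 66.7 CPM against 3.11 to 5.24 in the other 3. Its log2 fold change of -4.05 ± 0.74 was -3.42 without diapause replicate 4. Of 10 cuticle and chitin genes 3 rose and 5 fell.

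Several others stood among the 12 named products with the deepest falls without overlap. An organic cation transporter (LOC100648294) fell by 4.53 ± 0.49, the transcription factor nuclear factor 1 X-type-like (LOC100645803) by 4.43 ± 0.70 and MAP kinase 15-like (LOC100643480) by 4.71 ± 0.67. The cilium or centrosome genes CCDC104-like (LOC100645700) and Cep78 (LOC100645184) fell by 4.65 ± 0.65 and 4.57 ± 0.70. Among the 12 with the largest rises were 15-hydroxyprostaglandin dehydrogenase-like (LOC100643900), a short-chain dehydrogenase, with 71.0, 248, 220, 492 and 307 CPM in founders, against 4.37, 2.78, 12.4, 5.43 and 3.73 CPM in diapause (5.55 ± 0.73), and retinol dehydrogenase 14-like (LOC100644668, 4.29 ± 0.73, or 5.39 without diapause replicate 1 and 3.63 without founder replicate 1). Venom allergen 5-like (LOC100648036) had 46.5, 11.2, 507, 91.0 and 14.7 CPM in founders, against 2.62, 3.82, 3.20, 3.10 and 3.42 CPM in diapause, and its rise of 5.36 ± 1.10 was 3.63 without founder replicate 3. Zinc finger protein 2-like (LOC100645424) rose by 4.61 ± 0.77, the jerky-like gene (LOC100642546) by 4.19 ± 0.80 and 1-acyl-glycerol-phosphate acyltransferase alpha (LOC100650358), a step towards triglyceride and phospholipid, by 2.25 ± 0.39.

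Genes without a named product weighed towards diapause. Of 902 hypothetical proteins 241 rose and 505 fell (median -1.53), and of 263 non-coding models 68 rose and 146 fell (median -1.55). The hypothetical gene LOC100643650, in 116 intervals, had 268, 2420, 480, 538 and 1200 CPM in founders, against 8120, 29700, 23700, 33600 and 6700 CPM in diapause, and fell by 4.37 ± 0.81, with a log2 fold change of -5.03 without founder replicate 2. LOC100642686, in 36 intervals, fell by 4.10 ± 0.60. On average LOC100643650 took 0.0998% of a founder library and 1.97% of a diapause library, and LOC100642686 took 0.0858% of a founder library and 1.51% of a diapause library.

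Whether the change depended on the route to founding was tested by subtracting, from the change reported above, the matching change between founders post CO2 and CO2-treated queens. Queens of the CO2 route were also younger, so route and age cannot be told apart. The test called 92 genes, 2.43%, of which 3 had a positive and 89 a negative difference, that is, a change to founder that was more negative from diapause than from CO2 treatment, while 1038 genes had an unadjusted p under 0.05. That count rested on single libraries: it was 1005 without diapause replicate 1, 784 and 553 without founder post CO2 replicates 1 and 3, and 9 without CO2-treated replicate 1, 4 or 5, and it was 3 with the genetic line as a block. Of the genes named here 7 were among the 92, and all 7 missed the threshold with the line as a block. Vitellogenin-6-like had a route difference of -5.85 ± 1.25 (adjusted p = 0.023, block 0.0577), with mean levels of 19.2 CPM in founders post diapause and 5140 CPM in diapause, beside 18.6 CPM in founders post CO2 and 85.7 CPM 24 h after CO2, and 1650 CPM in mated queens. Cryptochrome-1-like had -3.18 ± 0.60 (adjusted p = 0.011, block 0.0603), with 49.7 CPM in founders post diapause and 702 CPM in diapause, beside 77.1 CPM in founders post CO2 and 120 CPM after CO2, and 111 CPM in mated queens. These were called in 19 and in all 25 of the fits that left out 1 library. PEPCK had a route difference of 0.23 ± 1.29, with 143 CPM in founders post diapause and 10400 CPM in diapause, beside 65.3 CPM in founders post CO2 and 5580 CPM after CO2. Serine protease inhibitor 3-like (LOC100651307) had one of 0.79 ± 1.24, with 5260 CPM in founders post diapause and 25.2 CPM in diapause, beside 2310 CPM in founders post CO2 and 19.1 CPM after CO2. Neither gene was called for the route (adjusted p = 0.911 and 0.675 from edgeR).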

How the data were processed

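Single-queen polyA RNA libraries of eviscerated abdomens with fat body were compared. The deposited table holds raw read counts that the authors made per exon-sized genome interval. The submitters' processing notes name Trimmomatic, TopHat and DESeq. Neither the labels nor the notes used here state the genome build, counting tool, strand setting or choice of intervals. A gene and its antisense partner may therefore share reads, and the table covers part of the transcriptome, so its totals are not sequencing depth. The other deposited file, gene models, served only for strand and exon order. Intervals were summed per gene identifier: 22679 intervals, 3861 genes, of which 3534 matched the RefSeq gene table used for names. Of all counts 0.288% lay off a gene's main scaffold. No sample column was left out.

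Counts were fitted in R 4.3.3 with edgeR 4.0.16 (quasi-likelihood, TMM, filterByExpr at 10 counts per library and 15 in total, which removed 68 genes) over all 25 libraries with a term per group and 20 residual degrees of freedom. The founder minus diapause contrast was two-sided, with Benjamini-Hochberg adjustment over 3793 genes, and every adjusted p is from this fit unless another is named. The coefficient of variation between queens was 51.4%. Depth was at least 2624582 counts per compared library. Alternatives were limma 3.58.1 voom, DESeq2 1.42.0, other scalings and filters, a minimum fold, subsets of libraries and the genetic line as a block. Tables were handled in Python 3.11.15 (pandas 2.3.3, numpy 2.4.6, matplotlib 3.10.9). The fit was tested on data simulated from the model it assumes, with few genes changed and as many raised as lowered. That test cannot speak for the scaling where most genes change, as here.

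Genetic line is a label of the queens. Deviations of same-line founders and diapausing queens correlated at -0.515 to 0.108 over the 5 lines, so same-line queens did not deviate together. The labels do not say that queens were from separate colonies, and p-values measure the spread between these queens. Replicates are numbered by order of deposit.

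The comparison, gene lists and tests were chosen with earlier results of these data known. Lists are search patterns on product names. By rule, the text names the 12 largest rises and 12 largest falls without overlap and at 10 CPM or more, up to 4 called genes per list, fixed storage and metabolic genes and the most abundant genes, of which 98 are given. A further 32 of the 130 genes named were chosen after their values were seen: among them the transaldolase, transketolase, lactate, sorbitol and glyceraldehyde-3-phosphate dehydrogenase, aconitase, bisphosphatase, enoyl-CoA reductase, antimicrobial peptide, ecdysone receptor, diacylglycerol acyltransferase, nanos, arginine kinase and splicing genes, and further members of the insulin, elongase, reductase, serpin and Tret1 families. No sequences are shown.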

Additional observations from a re-analysis of the deposited data

Results flagged for a closer look

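In each group of 5 queens, the CPM of each of the 130 genes named was examined for a queen whose gap to its nearest neighbour took more than 0.71 of the group's range. Of 260 groups of values, 45 held such a queen. Chance flags about 1 in 20 groups of independent, normally distributed values; CPM are skewed and some of the genes were chosen after their values were seen, so the rate for these groups was not measured. Of the 45 queens set apart, 28 were diapause replicate 1.

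Diapause replicate 1 stood above the other diapausing queens in lipid elongation and reduction genes, at 1743 CPM for the elongase LOC100649601, 821 for the dehydratase LOC100645881, 2265 for the enoyl-CoA reductase LOC100644169, and 1427, 662 and 635 for the acyl-CoA reductases LOC100643779, LOC100648083 and LOC100645650. It was also high at 1633 CPM for the muscle marker Argk, and in carbon metabolism at 2108 CPM for transaldolase, 2555 for transketolase, 2870 for glyceraldehyde-3-phosphate dehydrogenase and 1414 for sorbitol dehydrogenase. It was high as well at 190.5 CPM for LOC100647883 and 47.2 for LOC100647524, both ecdysteroid glucosyltransferases, 1891 for juvenile hormone epoxide hydrolase, 88.6 for serine protease inhibitor 3-like and 412 for the complex I subunit LOC100647466. Further high values were 172 CPM for mitochondrial ribosomal protein S2, 19.8 for glutathione S-transferase omega, 25.9 for trypsin-1-like, 715 for retinol dehydrogenase 14-like, 590 for heat shock protein 83-like, 51.3 for the acyltransferase LOC100650358 and 94.7 for the p14-like splicing gene. It was low at 133 CPM for cryptochrome-1-like, 32.9 for tuberin, 86.2 for EHMT1-like, 459 for the jmjC demethylase and 134 for CDK14-like.

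Founder replicate 1 stood above the other founders at 6833 CPM for the dehydratase LOC100645881, 12050 for the enoyl-CoA reductase, 17660 for serine protease inhibitor 3-like, 5892 for ATP synthase coupling factor 6, 9812 for the proteasome maturation protein, 170 for hymenoptaecin and 1788 for Def. Founder replicate 3 did so at 507 CPM for venom allergen 5-like, 1907 for heat shock protein 83-like and 4828 for Argk.

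The other queens set apart were diapause replicate 5 at 2071 CPM for the lipid droplet protein and 693 for the acyl-CoA reductase LOC100642508, and diapause replicate 4 at 427 for the vitellogenin receptor. Diapause replicate 3 had 12.4 CPM for 15-hydroxyprostaglandin dehydrogenase-like, 284 for lactate dehydrogenase and 177 for diacylglycerol acyltransferase 1, and diapause replicate 2 had 1118 for hymenoptaecin.

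The change to founder differed between the routes for 7 named genes in edgeR's quasi-likelihood test with Benjamini-Hochberg adjustment. The differences, diapause route minus CO2 route on the log2 scale, were -5.85 for vitellogenin-6-like (adjusted p = 0.023), -3.6 for the Tret1-like gene LOC100646027 (0.0122), -3.01 for diacylglycerol kinase theta-like (0.0415), -3.18 for cryptochrome-1-like (0.011), -2.56 for serpin B13-like (0.0366), -2.2 for the jmjC demethylase (0.0495) and -2.1 for CDK14-like (0.0239). Their sign was the same in all 37 alternative fits. With the genetic line as a block the adjusted p lay between 0.0577 and 0.119.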

How the results depend on the processing

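The main contrast called 3067 genes, and no gene called there was called in the opposite direction under any alternative. Tested against a fold of 2, it called 1877 genes, 668 of them higher. Without each library in turn the count lay between 2769 and 3160, with 1251 to 1621 higher and 1500 to 1565 lower. With the genetic line as a replicate block it called 3025, and 2475 with the block in the compared libraries alone. With library totals as the scale 2740 were called, 1191 higher.

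The route count of 92 moved with nearly every choice: 21 with library totals, 55 with no count filter, 484 with DESeq2, 2752 with limma voom and quality weights, 11 with the compared libraries only, 3 with the block, 2 with both, 3 against a fold of 2, 246 without the 2 shallow libraries (mated replicate 2 and CO2-treated replicate 3) and 1388 without those and diapause replicate 1. Without each library in turn it lay between 9 and 1005. The cause was not tested.

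The 3' to 5' difference, -0.004, lay between -0.009 and 0.003 without each library, and its sign reversed without diapause replicate 2. The last against the first interval gave -0.024 over 127 genes (two-sided exact permutation p = 0.0794).

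Of 124 named genes called, 114 stayed called in all 25 fits without 1 library. In every other alternative, subsets of libraries included and the fold of 2 aside, 116 stayed called. At the fold of 2, 18 were lost. Beyond the cases given above, adjusted p was 0.0575 for FOXO with library totals and 0.0644 without the shallow libraries and diapause replicate 1, and 0.0542 for Def with voom. With the block in the compared libraries alone it was 0.109 for mTOR, 0.07 for the toll-interacting protein, 0.0992 for the elongase LOC100646637, 0.0708 for nanos and 0.0752 for Argk. Depth limits genes of a few CPM, whose values rest on few reads.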
